A study of Mus musculus with 20 samples.

Results

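The genes of the respiratory chain and the ATP synthase were chosen by symbol: those that start with Nduf, Uqcr, Atp5 or Cox4 to Cox8, together with Sdha, Sdhb, Sdhc, Sdhd, Cyc1 and Cycs. Among 10843 genes with a probe that lists a single gene, 92 met this rule, and they were read by 255 probes. Grouped by symbol, the 92 genes were 35 of complex I, 8 assembly factors of complex I, 4 of complex II and 9 of complex III. The others were Cycs itself, 17 of complex IV, 17 of complex V and the pseudogene Ndufs5-ps. All 92 had enough values to be tested beside the other genes (10625 in all), and 19 of them rest on 1 probe. The array values did not enter the choice.

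HSF1 -/- mouse fibroblasts (KO) were compared with HSF1 +/+ mouse fibroblasts (WT), unheated (0 h) and at 0.5, 1, 2, 3, 4, 6 and 8 h of heat shock. HSF1 is the transcription factor that turns on chaperone genes in the heat. Each genotype had 3 arrays at 0 h and 1 array at each later time, here joined into an early window of 0.5 to 2 h (3 arrays of each genotype) and a late window of 3 to 8 h (4 arrays of each). Each 2-colour array set the sample, in Cy5, against 1 pool, in Cy3, of mRNA from fibroblasts with and without 1 h of heat. The labels give no strain, no embryo or animal of origin, no number of independent lines or clones, and no heating temperature. Separate cultures are not mentioned for the repeated arrays, so the p-values reflect array-to-array spread that may be technical, and genotype cannot be told apart from any other difference between the cell lines.

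The respiratory chain sits in the inner membrane of mitochondria. Complexes I (NADH dehydrogenase) and II (succinate dehydrogenase) pass electrons to ubiquinone, complex III hands them to the small carrier cytochrome c, and complex IV (cytochrome c oxidase) gives them to oxygen. Complexes I, III and IV pump protons, and complex V, the ATP synthase, uses the proton gradient to make ATP. All genes named here lie in the nucleus, while mitochondrial DNA encodes further subunits of every complex but II. The nuclear genes are known targets of the nuclear respiratory factors NRF1 and GABPA.

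Arrays held 39037 to 42220 values each, and their number limits the precision. The labels were checked with Hspa1a, the HSF1-dependent chaperone, which was lower in KO than in WT cells in the late window by a log2 difference of -5.95 ± 0.70 (SE, limma adjusted p = 4.18e-05). Of 11 fibroblast markers, 3 were higher and 1 was lower in KO cells at 0 h, whereas 0 of 14 muscle and 0 of 9 epithelial markers passed. Among 8 macrophage markers 2 were lower, Fcgr1 (-1.13) and Cd68 (-0.83), and the median of that list lay at -0.54 to -0.34 on the KO arrays against -0.05 to 0.02 on the WT arrays at 0 h. The list was mixed: 3 of the 8 differences lay above 0, up to 0.90, though 0 passed as higher. The part of these markers in the results was not tested, and a ratio to a pool cannot show whether a marker is expressed. In bulk RNA, fewer cells of a type and less RNA per cell cannot be told apart.

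The arrays also differed in width, the interquartile range of all their log2 ratios, and the values of the respiratory genes differed with it in part. The median over the 92 genes, relative to the mean of the WT 0 h arrays, was -0.11, -0.41 and -0.45 on the 3 KO 0 h arrays with widths of 1.53, 1.09 and 1.21. On the WT 0 h arrays it was 0.06, -0.09 and 0.03, with widths of 1.50, 1.47 and 1.52. Widths were 1.02, 1.16, 0.953 and 0.937 in KO cells at 3, 4, 6 and 8 h, with medians of -0.49, -0.60, -0.77 and -0.73. Widths in WT cells at the same times were 1.53, 1.10, 1.25 and 1.26, with medians of 0.01, -0.47, -0.26 and -0.30. In the early window the medians were -0.24, -0.34 and -0.21 in KO cells at 0.5, 1 and 2 h, with widths of 1.245, 1.31 and 1.504, against -0.12, -0.36 and -0.35 in WT cells, with widths of 1.61, 1.257 and 1.258. The 2 narrowest arrays, KO at 6 and 8 h, thus carried the lowest values, but the order was not strict: the widest array, WT at 0.5 h, lay further below the WT 0 h mean than the narrower WT 3 h array did. The probes of these genes had a median above that of their array on every array, by 0.256 to 1.18. Whether array width plays a part in the genotype differences was not tested, and results are given below with arrays scaled to a common width as well.

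**Figure D1:**
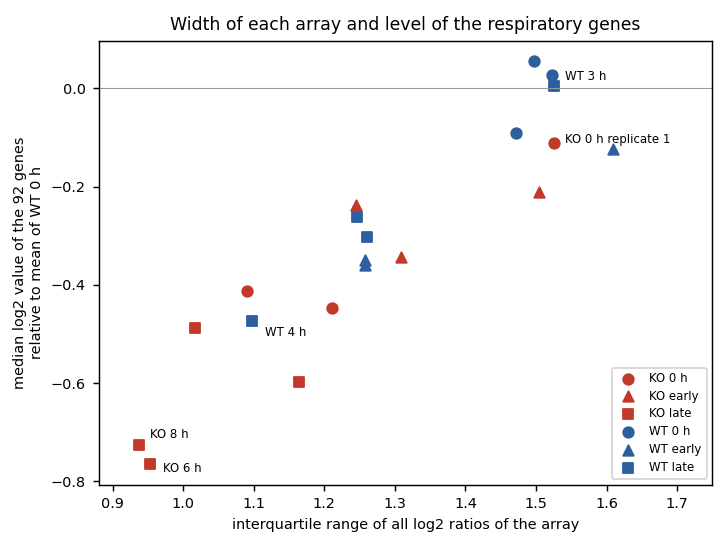
Width of each of the 20 arrays (interquartile range of its log2 ratios, horizontal axis) and the median log2 value of the 92 genes on it, relative to the mean of the WT 0 h arrays (vertical axis), KO in red and WT in blue. The KO arrays at 6 and 8 h are narrowest, at 0.953 and 0.937, and lowest, at -0.77 and -0.73, and the WT 3 h array lies with the WT 0 h arrays.

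The first comparison asked how the respiratory genes differed between unheated KO and WT cells. Cycs, the electron carrier cytochrome c, which also triggers apoptosis when it leaves the mitochondrion, was 2.03-fold lower in KO cells, and the testis subunit Cox6b2 of complex IV was 3.47-fold higher. Of the 92 genes 12 were lower in KO cells and 1 was higher (limma, Benjamini-Hochberg over all genes, adjusted p under 0.05), where 3.6% of all genes were lower and 3.04% higher. The median difference over the 92 genes was -0.32, with 74 of 92 below 0, against a median of 0.05 over all genes, of which 45.3% were below 0. By arrays that did not overlap, 32 of the 92 genes lay lower and 3 higher in KO cells (11.9% and 13.2% of all genes). By complex the median was -0.28 for I (3 lower), -0.10 for II (0 lower), -0.41 for III (0 lower, 9 of 9 below 0), -0.45 for IV (4 lower, 1 higher) and -0.41 for V (4 lower). The assembly factors of complex I had a median of -0.14, with 0 of 8 past the threshold.

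Cycs read -0.77, -1.04 and -1.25 on the KO 0 h arrays, against 0.11, -0.12 and 0.02 on the WT 0 h arrays, all as log2 values relative to the WT 0 h mean. The groups did not overlap and every KO array lay well below every WT array. The difference was -1.02 ± 0.18 (SE, limma adjusted p = 0.00205), and all 6 probes of Cycs pointed down, from -1.32 to -0.77. It passed in each fit that left out 1 array (adjusted p up to 0.016) and with arrays scaled to a common width (-0.77, adjusted p = 0.00849). It did not pass in a fit of only the 0 h arrays.

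Within complex IV, Cox5a, a matrix-side subunit that every tissue uses, read -0.66, -1.02 and -0.97 in KO cells and 0.03, -0.10 and 0.07 in WT cells. Its difference was -0.88 ± 0.18 (limma adjusted p = 0.00541), with no overlap between the genotypes. Cox5b was lower by -0.76 ± 0.19 (adjusted p = 0.0206) and Cox7a2, a small membrane subunit, by -0.60 ± 0.17 (adjusted p = 0.0354). Cox8a had the lowest difference of the genes past the threshold, -1.42 ± 0.38 (adjusted p = 0.031), but also a wide spread: it read -0.94, -1.54 and -1.78 in KO cells and 1.23, -0.82 and -0.41 in WT cells. The first WT array stood far above the other two. Without it the value was -0.80, and leaving out that array, KO replicate 2 or KO replicate 3 ended the call (adjusted p up to 0.127).

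Cox6b2 went the other way. It encodes the testis form of subunit 6b, which lies where the complex IV dimer joins, and it read 2.01, 1.67 and 1.71 in KO cells against -0.07, 0.04 and 0.03 in WT cells at 0 h. The difference was 1.79 ± 0.20 (limma adjusted p = 4.31e-05), its 2 probes gave 1.64 and 1.95, and it passed under every setting tried. The form found in other tissues, Cox6b1, differed by -0.29 ± 0.22 (adjusted p = 0.511). The other forms of complex IV subunits that are known from muscle or testis did not pass either: Cox6a2 at 0.29, Cox7a1 at -0.50, Cox8b at 0.10, Cox8c at 0.46 and Cox7b2 at 0.07, with adjusted p from 0.245 to 0.885.

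In the ATP synthase, the catalytic head F1 is a ring of alpha and beta subunits around the rotating gamma subunit. Gamma (Atp5c1) read -0.57, -0.90 and -1.02 in KO cells and 0.09, -0.04 and -0.05 in WT cells, a difference of -0.83 ± 0.17 (limma adjusted p = 0.00691). Beta (Atp5b) was lower by -0.85 ± 0.22 (adjusted p = 0.0251), with 16 probes from -1.29 to 0.13, but at -0.51 it did not pass with arrays scaled to a common width (adjusted p = 0.121) or with quantile normalization (adjusted p = 0.116). Alpha (Atp5a1) read 0.41, 0.05 and 0.28 in KO cells and -0.20, 0.18 and 0.03 in WT cells, a difference of 0.24 with a 95% interval of -0.21 to 0.70 (adjusted p = 0.578), and its 6 probes ranged from -0.38 to 1.299. The difference between alpha and beta was not tested. Atp5g1, a form of the c subunit of the membrane rotor, was lower by -0.80 ± 0.20 (adjusted p = 0.0226), and Atp5o, in the stalk that holds F1 in place, by -0.69 ± 0.20 (adjusted p = 0.0474).

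The 3 complex I genes past the threshold were Ndufb6, an accessory membrane subunit (-0.61 ± 0.17, adjusted p = 0.0327), Ndufab1, the mitochondrial acyl carrier protein (-0.80 ± 0.21, adjusted p = 0.0306), and Ndufa4l2, a relative of Ndufa4 (-0.79 ± 0.21, adjusted p = 0.028). The 2 probes of Ndufb6 gave -0.95 and -0.30. Its call was lost with 1 probe per gene, with quantile normalization and with arrays scaled to a common width (-0.51, limma adjusted p = 0.0825). It was kept in 15 of the 20 fits that left out 1 array, with values up to -0.36. The other 2 genes rest on discordant probes. The 7 probes of Ndufab1 ranged from -2.41 to 0.02, and of the 3 probes of Ndufa4l2 1 gave -3.37 and the others 0.08 and 0.10. Without the WT 0 h array of replicate 2, the value of Ndufa4l2 became 0.15. In complex II, Sdha, the flavoprotein that oxidises succinate, read 0.49, 0.25 and 0.53 in KO cells against -0.12, 0.10 and 0.03 in WT cells, yet did not pass (0.42 ± 0.16, adjusted p = 0.135). Sdhb (-0.32), Sdhc (0.11) and Sdhd (-0.38) did not pass either, with adjusted p of 0.417 to 0.786.

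With arrays scaled to a common width, 7 of these 13 genes remained called at 0 h and the median of the 92 genes was -0.20. Without KO replicate 2 the count was 4, without KO replicate 3 it was 5, without WT replicate 1 it was 7 and without WT replicate 3 it was 5. Cox6b2, Cycs, Cox5a and Atp5c1 passed in each of the 20 fits that left out 1 array. In a fit of only the 0 h arrays, Cox6b2 alone passed.

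**Figure D2:**
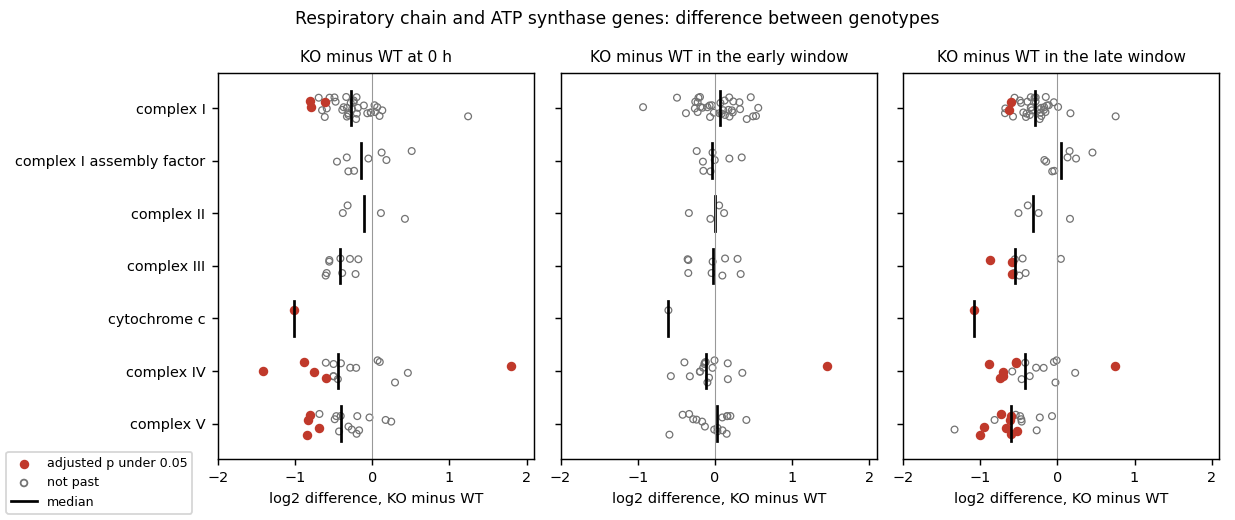
Difference in log2 value between KO and WT cells (horizontal axis) for each gene, by complex (vertical axis), at 0 h, in the early window and in the late window. Red points passed an adjusted p of 0.05, and black bars are medians, which for complex V are -0.41 at 0 h, 0.03 in the early window and -0.60 in the late window.

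Promoters were looked at for the 92 genes as a whole. Those of the genes lower in KO cells were not compared with those of the other respiratory genes. Whether a motif goes with the lower values was therefore not tested. RefSeq windows (GRCm38.p6, from 250 bases before to 50 bases after a gene's start) matched 75 of the 92 genes, as 79 windows, and motifs were searched on both strands. The NRF1 motif GCGCANGCG stood in windows of 21 of the 75 genes (28%), against 7.03% of the 27025 genes in the table, the GABPA motif CCGGAAG in 19 (25.3%, against 9.93%) and the YY1 motif AAGATGGCG in 8 (10.7%, against 1.64%). A longer form of the NRF1 motif, with the palindrome's last base added, stood in 17 (22.7%, against 5.19%). The pair GAANNTTC, part of the heat shock element to which HSF1 binds, stood in 4 (5.33%, against 9.04%): Atp5b, Atp5c1, Cox5a and Sdha. With the next unit of the element in line behind the pair, 0 of 75 held it, against 0.662% of all. Base composition was not matched, and a match does not show that a site is bound. Shown are the 250 bases before the start of 4 genes on which the results turn: Cycs and Atp5c1, lower in KO cells at 0 h and late, Cox6b2, higher in KO cells, and Sdha, which fell late in KO cells. All lie on the minus strand: Cycs at chr6:50566570-50566819, Atp5c1 at chr2:10080433-10080682, Cox6b2 at chr7:4753095-4753344 and Sdha at chr13:74350241-74350490. Capitals mark NRF1 motifs and heat shock pairs, on either strand, and the sequences read 5′ to 3′. Where a gene had several windows, the one with the most NRF1 motifs in these bases was chosen. Atp5c1 has 2 annotated windows, and its pair lies in the other, which this choice left out.
Cycs: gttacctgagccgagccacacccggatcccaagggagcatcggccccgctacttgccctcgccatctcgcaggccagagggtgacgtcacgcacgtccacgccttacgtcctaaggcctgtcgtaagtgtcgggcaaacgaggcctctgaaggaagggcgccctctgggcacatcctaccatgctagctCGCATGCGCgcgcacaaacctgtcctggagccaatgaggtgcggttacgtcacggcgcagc
Atp5c1: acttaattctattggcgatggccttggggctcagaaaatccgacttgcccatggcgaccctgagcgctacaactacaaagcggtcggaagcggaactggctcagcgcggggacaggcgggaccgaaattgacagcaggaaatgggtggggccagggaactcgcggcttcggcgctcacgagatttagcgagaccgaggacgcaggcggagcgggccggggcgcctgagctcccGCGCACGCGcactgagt
Cox6b2: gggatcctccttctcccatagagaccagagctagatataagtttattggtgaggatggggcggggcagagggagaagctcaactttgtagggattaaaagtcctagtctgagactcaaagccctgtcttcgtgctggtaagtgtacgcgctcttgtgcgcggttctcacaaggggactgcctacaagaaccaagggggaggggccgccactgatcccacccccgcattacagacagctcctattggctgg
Sdha: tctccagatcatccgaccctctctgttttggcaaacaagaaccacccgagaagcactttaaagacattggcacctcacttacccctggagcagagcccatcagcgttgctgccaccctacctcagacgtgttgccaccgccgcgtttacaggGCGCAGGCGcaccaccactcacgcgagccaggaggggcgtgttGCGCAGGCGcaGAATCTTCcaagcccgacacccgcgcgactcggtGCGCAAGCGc
Sdha thus carries 3 NRF1 motifs, which begin at -98, -55 and -10 from its start, and a heat shock pair at -44. Cycs carries 1 NRF1 motif at -61, which is not of the longer form, and the window chosen for Atp5c1 carries 1 at -17. Cox6b2 holds none of the searched motifs in its window.

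Early in the heat Cox6b2 alone passed between the genotypes. The median difference between KO and WT cells over the 92 genes was -0.03 in the early window, 0 were lower and 1 was higher, against 0.96% and 1.36% of all genes. The arrays of the 2 genotypes did not overlap for 8 genes lower and 12 higher in KO cells (10.2% and 10.4% of all genes). The gene that was higher was Cox6b2, with 1.67, 1.64 and 1.0 in KO cells at 0.5, 1 and 2 h against -0.34, 0.35 and -0.06 in WT cells (1.46 ± 0.20, limma adjusted p = 0.000419). Cycs read -0.92, -1.12 and -0.92 in KO cells and -0.37, -0.43 and -0.35 in WT cells at these times. Its groups did not overlap, but the difference of -0.60 ± 0.18 did not pass (adjusted p = 0.0979).

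Set against its own 0 h arrays, neither genotype had a respiratory gene past the threshold in the early window. In KO cells 0 of 92 passed (0% of all genes in either direction), and the median was 0.08. Early and 0 h arrays of KO cells did not overlap for 3 genes lower and 6 higher early (9.2% and 4.56% of all genes). In WT cells 0 of 92 passed (0.0282% of all genes lower and 0.00941% higher), and the median was -0.25. Early and 0 h arrays of WT cells did not overlap for 32 genes lower and 1 higher early (8.24% and 6.24% of all genes). The lowest unadjusted p in WT cells was that of Ndufa4 (-0.88 ± 0.20, adjusted p = 0.155), which is grouped here with complex I by its symbol and is now counted as a subunit of complex IV. The early response of KO cells exceeded that of WT cells by a median of 0.32, but 0 of 92 genes passed (0% of all genes). Without centring of the arrays that median was 0.05, where the median of all genes was -0.31. This contrast shares the 0 h arrays with the comparison at 0 h, so it is not a separate observation.

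In the late window 20 of the 92 genes were lower in KO cells and 1 was higher, against 4.66% and 1.83% of all genes. Below 0 were 81 of 92 differences, against 44.3% of all genes (median -0.37, over all genes 0.05). Without overlap between the arrays, 40 lay lower and 2 higher in KO cells (8.36% and 6.54% of all genes). Complex V had 8 of 17 genes lower and 17 of 17 below 0 (median -0.60). Complex III had 3 of 9 lower (median -0.55), complex IV 6 of 17 lower and 1 higher (-0.42), complex I 2 of 35 lower (-0.30) and complex II 0 of 4 (-0.31). The complex I assembly factors had 0 of 8 and a median of 0.05. No test compared the complexes with each other.

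Cycs again had the lowest p of the genes that were lower. It read -1.07, -1.08, -1.33 and -1.43 in KO cells at 3, 4, 6 and 8 h, against 0.02, -0.58, -0.14 and 0.11 in WT cells, a difference of -1.08 ± 0.16 (limma adjusted p = 0.000336) without overlap. Cox7b, a small subunit of complex IV encoded on the X chromosome, read -1.19, -1.08, -1.36 and -1.16 in KO cells and -0.13, -0.43, -0.58 and -0.12 in WT cells. Its groups did not overlap, with a difference of -0.88 ± 0.15 (adjusted p = 0.00149) and 3 probes between -1.06 and -0.72. In complex III, Cyc1, the cytochrome c1 that passes electrons to cytochrome c, was lower by -0.88 ± 0.19 (adjusted p = 0.00787). It read -0.89, -0.92, -0.65 and -1.11 in KO cells and 0.35, -0.44, 0.14 and -0.11 in WT cells, so the WT 4 h array came closest to the KO values. Uqcrb and Uqcr10, small subunits of complex III, were lower by -0.59 ± 0.16 and -0.58 ± 0.15 (adjusted p = 0.0365 and 0.0272).

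For the ATP synthase, beta (Atp5b) read -0.93, -1.27, -1.51 and -1.51 in KO cells and 0.00, -0.66, -0.02 and -0.51 in WT cells, a difference of -1.01 ± 0.19 (limma adjusted p = 0.00301). Gamma (Atp5c1, -0.61 ± 0.15), delta (Atp5d, -0.73 ± 0.18), the stalk subunit Atp5o (-0.67 ± 0.17) and the membrane subunits Atp5k (-0.60 ± 0.16), Atp5j2 (-0.61 ± 0.17), Atp5md (-0.53 ± 0.14) and Atp5mpl (-0.95 ± 0.21) also passed, with adjusted p of 0.0101 to 0.0392. Alpha (Atp5a1) did not, at -0.46 ± 0.19 (adjusted p = 0.175). The lowest value, -1.33 for the rotor subunit Atp5g3 (adjusted p = 0.0606), rests on 1 array: WT cells read 2.41 at 3 h and -0.37, 0.15 and 0.07 at the other times, and KO cells -0.46 to -0.96. The other complex IV genes that were lower were Cox7a2 (-0.74), Cox6a1 (-0.70), Cox5b (-0.70), Cox6c (-0.54) and Cox5a (-0.53). Those grouped with complex I by symbol were Ndufb6 (-0.60) and Ndufa4 (-0.63), the latter now counted with complex IV. Adjusted p of these genes was 0.00376 to 0.0472.

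Of the 12 genes that were lower at 0 h, 8 (66.7%) were also among the 20 lower late (40% of these): Atp5b, Atp5c1, Atp5o, Cox5a, Cox5b, Cox7a2, Cycs and Ndufb6. The 2 contrasts use different arrays but share 1 estimate of each gene's spread over all 20 arrays, so they are not fully separate observations. Over all genes 234 were lower in both, 61.3% of those lower at 0 h and 47.3% of those lower late, so the shares of the respiratory genes were near those of all genes. With arrays scaled to a common width, Atp5c1, Cox5b and Cycs passed in both. Atp5b, Atp5o, Cox7a2 and Ndufb6 then lost the call at 0 h (adjusted p of 0.083 to 0.221), and Cox5a lost it late (adjusted p = 0.056). Cox6b2 was higher in both. Late it read 1.31, 1.12, 0.88 and 1.05 in KO cells against 0.34, 0.21, 0.50 and 0.31 in WT cells (0.75 ± 0.17, adjusted p = 0.0124). Its probes gave 1.24 and 0.26 there. Where the filter on missing values left the second probe alone, as without the WT array of 1 h or of 2 h, the value was 0.26 and did not pass.

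**Figure D3:**
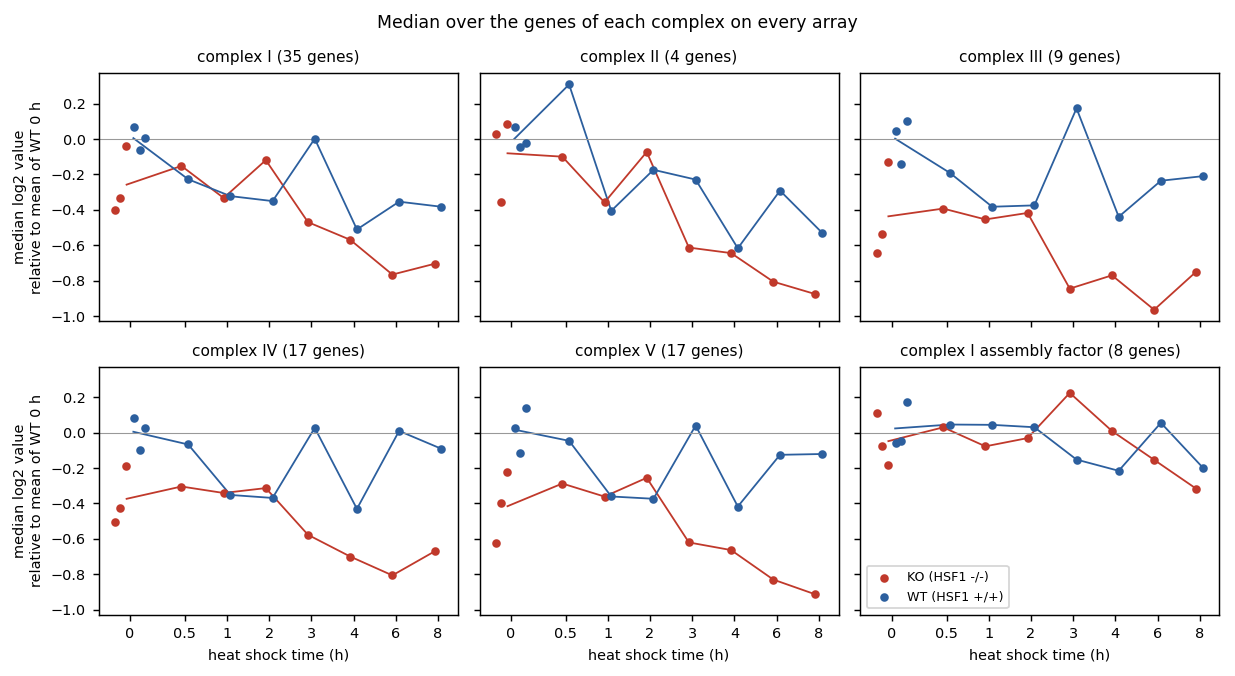
Median log2 value over the genes of each complex on every array, relative to the mean of the WT 0 h arrays (vertical axis), against heat shock time in h (horizontal axis), KO in red and WT in blue; lines join the mean of the 0 h arrays to the single arrays that follow. In the late window the KO line lies below the WT line at each time for complexes I to V, and the lines of the complex I assembly factors cross.

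At single times the gap varied. The median over the 92 genes of KO minus WT was -0.08, -0.04 and 0.15 at 0.5, 1 and 2 h, then -0.58, -0.09, -0.50 and -0.41 at 3, 4, 6 and 8 h, while the median of all genes stayed between -0.03 and 0.07. At 2 h only 22 of 92 genes were lower in KO cells, and at 3 h 76 were. The width of the KO array less that of the WT array differed between these times as well. The KO array was the wider of the pair at 2 h (1.504 against 1.258) and the narrower at 3 h (1.02 against 1.53), 6 h (0.953 against 1.25) and 8 h (0.937 against 1.26), and the widths were close at 1 h (1.31 against 1.257) and 4 h (1.16 against 1.10). At 0.5 h the KO array was also the narrower (1.245 against 1.61), and the gap was -0.08. Each time has 1 array per genotype, and the part of width in these gaps was not tested. Of 90 genes with a value at all 7 times, 11 were lower in KO cells at 7 of 7, where 6.55% of all genes were: Atp5b, Atp5d, Cox5a, Cox6a1, Cox6b1, Cyc1, Cycs, Ndufa10, Ndufb6, Uqcrc1 and Uqcrc2. Cox6b2 was higher at 7 of 7 (5.3% of all genes).

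With arrays scaled to a common width the late difference kept 17 of its 21 genes among 24 called, and the median was -0.30. Without the KO arrays of 6 and 8 h, the narrowest of all, 3 genes were called. Without the KO array of 6 h the count was 8, without that of 8 h it was 10, without the WT array of 3 h it was 8 and without that of 6 h it was 12. Cycs, Cox7b, Atp5b, Cox7a2, Cyc1 and Atp5mpl passed in every fit that left out 1 array.

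**Figure D4:**
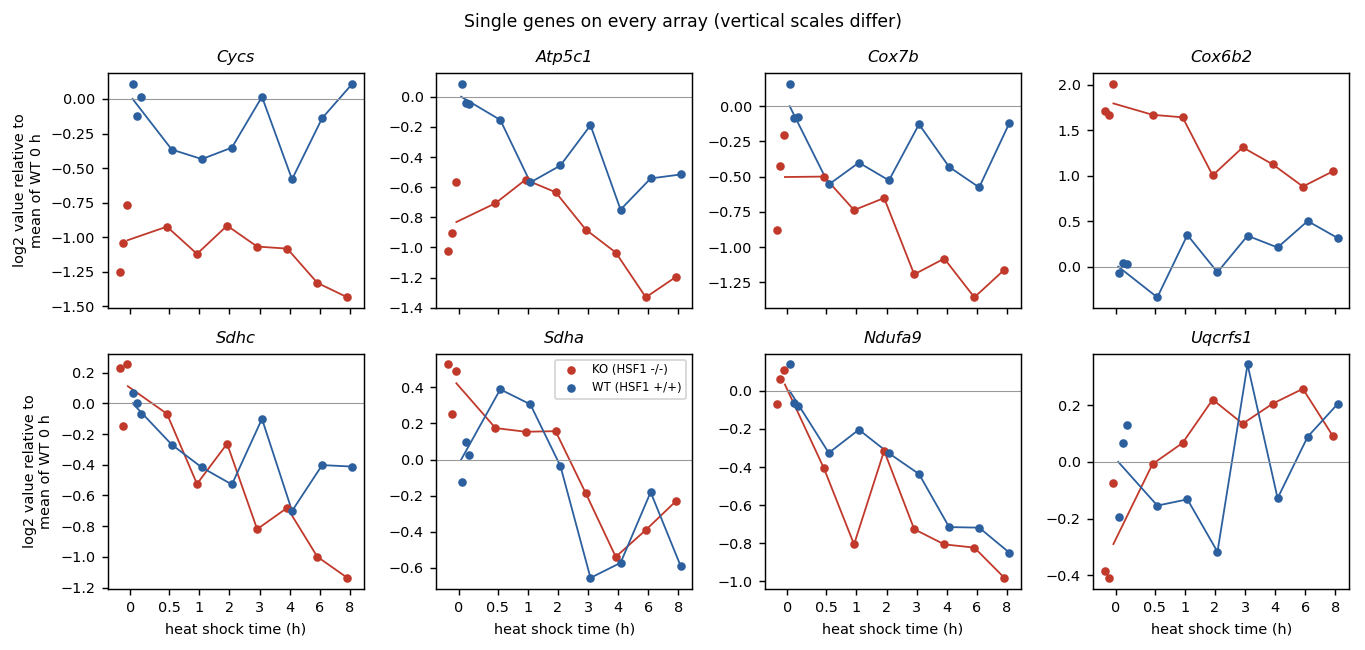
Log2 value of 8 genes on every array, relative to the mean of the WT 0 h arrays (vertical axes, scales differ), against heat shock time in h (horizontal axis), KO in red and WT in blue; lines join the 0 h mean to the single later arrays. Cycs and Cox6b2 are apart at every time, Cox7b parts late, and Sdhc and Ndufa9 are lowest at 8 h in KO cells, at -1.14 and -0.98.

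The remaining comparisons asked how each genotype changed late in the heat against its own 0 h arrays. In KO cells 15 of the 92 genes fell and 2 rose, against 6.8% and 3.86% of all genes, with a median of -0.30 (all genes -0.02). In WT cells 6 fell and 0 rose, against 3.67% and 3.6% of all genes, with a median of -0.27 (all genes -0.02). Late and 0 h arrays did not overlap for 32 genes lower and 4 higher late in KO cells (16.3% and 10.4% of all genes), and for 16 lower and 1 higher in WT cells (10.6% and 9.42%). Of the 6 that fell in WT cells 5 (83.3%) were among the 15 that fell in KO cells (33.3% of these), where over all genes 177 fell in both, 45.4% of those that fell in WT cells and 24.5% of those that fell in KO cells. These 5 were Ndufa9, Ndufa4, Ndufb4, Uqcrh and Atp5o. The other, Ndufa4l2, rests on the discordant probe named above.

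Ndufa9, an accessory subunit near the quinone site of complex I, fell in both genotypes. It read -0.73, -0.81, -0.82 and -0.98 in KO cells late, against 0.11, 0.06 and -0.07 at 0 h (-0.87 ± 0.14, limma adjusted p = 0.00109). In WT cells it read -0.44, -0.72, -0.72 and -0.85 late, against 0.14, -0.06 and -0.08 at 0 h (-0.68 ± 0.14, adjusted p = 0.0103). Late and unheated arrays did not overlap in either genotype, both falls stayed past the threshold with any array left out, and all values come from 1 probe. The hinge protein Uqcrh of complex III fell by -0.68 ± 0.19 in KO cells and by -0.71 ± 0.19 in WT cells (adjusted p = 0.0257 and 0.0304).

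In complex II 0 of 4 genes passed between the genotypes at 0 h, early or late, and 2 of the 4 fell late in KO cells. Sdhc, a membrane anchor that binds haem, read -0.82, -0.68, -1.0 and -1.14 in KO cells late, against 0.25, -0.15 and 0.23 at 0 h (-1.02 ± 0.17, limma adjusted p = 0.00109, 3 probes from -1.27 to -0.81). Sdha read -0.19, -0.54, -0.39 and -0.23 late, against 0.49, 0.25 and 0.53 at 0 h (-0.76 ± 0.15, adjusted p = 0.0042). Both falls stayed past the threshold with any array left out and with arrays scaled to a common width (-1.03 and -0.70). With 1 probe per gene the call of Sdha was lost and that of Sdhc was kept. The 6 probes of Sdha ranged from -1.42 to -0.27. In WT cells the late values were -0.40 ± 0.17 for Sdhc (adjusted p = 0.151) and -0.50 ± 0.15 for Sdha (adjusted p = 0.0534). The iron-sulphur subunit Sdhb (-0.38 in KO and -0.32 in WT cells) and the second anchor Sdhd (-0.46 and -0.60) did not pass in either genotype. The 5 probes of Sdhd disagreed, from -1.36 to 0.11 in KO cells and from -1.59 to 1.61 in WT cells.

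The other genes that fell in KO cells came from complex I (Ndufb7 -0.96, Ndufb3 -0.73, Ndufc2 -0.71), complex III (Uqcrc1, a core protein, -1.02), complex IV (Cox7b -0.70, Cox6b2 -0.70) and complex V (Atp5a1 -0.88, Atp5k -0.69), with adjusted p of 0.0098 to 0.0379. The 6 probes of alpha (Atp5a1) ranged from -1.65 to -0.34, and its call was lost with 1 probe per gene, without KO 0 h replicate 1 (adjusted p = 0.061) and without the KO 6 h and 8 h arrays. Beta (Atp5b) was at -0.45 ± 0.20 (adjusted p = 0.176). The 2 genes that rose were Uqcrfs1, the Rieske iron-sulphur protein of complex III (0.46 ± 0.14, adjusted p = 0.0451, 1 probe), and Atp5e, the epsilon subunit of F1 (0.63 ± 0.18, adjusted p = 0.0289). Uqcrfs1 read 0.13, 0.21, 0.26 and 0.09 late in KO cells against -0.07, -0.41 and -0.39 at 0 h. The rise of Atp5e rests on 1 of 2 probes, 1.38 against -0.13.

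With arrays scaled to a common width, 19 genes were called in KO cells, 16 of them among these 17 (median -0.19), and 2 in WT cells, 1 of them among these 6 (median -0.13). In KO cells the count was 5 without 0 h replicate 1, the widest KO array, 8 without the 6 h array, 8 without the 8 h array and 11 without 0 h replicate 2. In WT cells it was 13 without the 3 h array, 1 without the 8 h array, and 2 without the 4 h array or without 0 h replicate 1. It was 3 without 0 h replicate 3, the 6 h or the 1 h array, or the KO array of 2 h or 0 h replicate 2.

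The late responses of the genotypes were compared directly. None of the 92 genes passed in either direction (0.0188% of all genes higher and 0.0753% lower in the response of KO cells). The median was -0.03. Cox6b2 had the smallest p: its value fell in KO cells and was 0.34 higher late in WT cells, a difference between responses of -1.04 ± 0.26 with a 95% interval of -1.60 to -0.49 (limma adjusted p = 0.234). For Sdhc the difference was -0.62 (95% interval -1.12 to -0.12, adjusted p = 0.494), for Atp5a1 -0.71 (-1.31 to -0.11, adjusted p = 0.505) and for Cycs -0.06 (-0.56 to 0.44, adjusted p = 0.972). A fall past the threshold in KO cells only, as for Sdhc and Atp5a1, was thus not shown to differ between the genotypes.

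Genes that serve the chain were read from lists of the same pathways. Beside the counts that follow, 3.6% of all genes were lower and 3.04% higher in KO cells at 0 h. The shares were 0.96% and 1.36% in the early window, and 4.66% and 1.83% in the late window. Among 23 assembly factors of complexes II to V, 2 were lower in KO cells at 0 h, Sdhaf1 (-1.32 ± 0.19, limma adjusted p = 0.000462) and Cox17 (-1.19 ± 0.27, adjusted p = 0.0112), and the median was -0.10. Sdhaf1 helps to load iron and sulphur into Sdhb, and Cox17 carries copper to complex IV. Sdhaf1 read -1.03, -1.18, -1.41 and -1.36 in KO cells late, against 1.00, 0.52, 1.09 and 0.67 in WT cells, a difference of -2.07 ± 0.17 (adjusted p = 1.12e-06). In WT cells it rose late by 0.82 ± 0.18 (adjusted p = 0.0129) and in KO cells it was at 0.07 (adjusted p = 0.85), and the difference between these responses did not pass (-0.75 ± 0.26, adjusted p = 0.439). Atpaf2, an assembly factor of F1, rose late in KO cells by 1.32 ± 0.21 (adjusted p = 0.001) and stood at 0.64 in WT cells (adjusted p = 0.0798).

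Among 10 carriers and porins 3 were lower in KO cells at 0 h (median -0.36): the ADP/ATP carrier Slc25a5 (-1.31 ± 0.20, limma adjusted p = 0.000735), the porin Vdac2 (-0.79) and Slc25a13 (-0.97). Slc25a5 read -1.15, -1.42 and -1.36 in KO cells and -0.01, 0.01 and 0.00 in WT cells at 0 h, and -1.60 to -2.22 late in KO cells against -0.08 to -0.87 in WT cells. It was lower in all 3 windows. Of 21 genes of protein import 6 were lower and 1 was higher at 0 h (median -0.31), with differences from -0.84 to 1.05. Those lower included Tomm20 (-0.66), Timm23 (-0.84) and Timm8b (-0.68), and in the late window 6 of the 21 were lower. Of 16 genes of the tricarboxylic acid cycle and pyruvate dehydrogenase 1 was lower at 0 h, Idh3a, a subunit of isocitrate dehydrogenase (-0.85 ± 0.22, adjusted p = 0.03), which was also lower in the early (-1.16) and late (-1.08) windows.

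Of 16 regulators of mitochondrial gene expression 1 was higher in KO cells at 0 h, Mterf4 (0.84 ± 0.23, limma adjusted p = 0.0311), and the median was 0.09. Mterf4 was also higher in the early (1.53 ± 0.23, adjusted p = 0.000963) and late (0.79 ± 0.20, adjusted p = 0.0205) windows. The size of the early difference leans on the WT array of 0.5 h. Mterf4 read -1.37, -0.34 and -0.30 in WT cells at 0.5, 1 and 2 h, against 0.88, 0.73 and 0.97 in KO cells. Polg, the mitochondrial DNA polymerase, was lower in the early (-0.80) and late (-1.19 ± 0.16, adjusted p = 0.00018) windows. For scale, the same comparison at 0 h gave 57 of 70 cytosolic ribosomal protein genes lower (median -1.0), 7 of 37 proteasome genes (-0.39) and 3 of 73 mitochondrial ribosomal protein genes (-0.25), against 12 of 92 respiratory genes (-0.32). Of all genes 3.6% were lower. Lower values at 0 h were therefore not limited to the respiratory genes.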

How the data were processed

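The deposited value table of 20 2-colour arrays holds 1 log ratio per probe and array, taken here as log2 of Cy5 (sample) over Cy3 (pool), the dyes per the labels. The authors' image analysis, filters and normalization are not given in the sources used here. Neither is the log base: the largest absolute value, 10.2, exceeds the 4.82 that 16-bit intensities allow on a log10 scale, but a natural log is not excluded, and folds would then be too small. Intensities were not used, so signal over background is unknown. Of 42624 probes 21701 list 1 gene, 1124 several and 19799 none, per GEO's platform annotation, and 3.28% of values are missing. Arrays were centred on their median. Probes with 1 gene and at least 2 values in each of 6 groups (genotype by 0 h, early and late) were kept, and a gene's value is the mean of its probes, each relative to its own mean. One further probe, which lists Uqcrh with another gene, was left out.

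R 4.3.3 and limma 3.58.1 (lmFit, eBayes) fitted the 6 groups over all 20 arrays, with 9 contrasts and Benjamini-Hochberg adjustment over 10625 genes. The threshold was an adjusted p of 0.05, errors are standard errors of this fit, and intervals are 95% intervals. The fit was tested on simulated data. Windows join different times and are not replicates of 1 condition, since only 0 h was repeated. Same-numbered 0 h arrays and same-time arrays of the genotypes deviated together with r of -0.024 to 0.045, so no block was used. Alternatives were no centring, quantile normalization, scaling to a common array width, 1 probe per gene, only complete probes, only the arrays of a contrast, a block, each array left out, both 0.5 h arrays left out and, chosen after seeing the data, the KO 6 h and 8 h arrays left out.

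Named genes were Cycs, Cyc1 and the Sdh genes, up to 10 genes of smallest p per contrast and direction, the genes of smallest p and of extreme difference per complex, tissue isoforms, and up to 3 genes from each pathway list. The other genes past the threshold and the partners set beside them were added after their values were seen. The genes, lists and motifs were chosen with earlier results of these data known.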

Additional observations from a re-analysis of the deposited data

Results flagged for a closer look

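Of 92 groups of 4 late arrays examined, 3 held an array apart from the other 3 by Dixon's criterion, where chance flags about 1 in 20 groups. Cox8a read -1.28 in KO cells at 4 h, with the others between -1.63 and -1.59. Uqcrh read -1.17 in KO cells at 8 h, with the others between -1.31 and -1.30. Ndufb4 read -0.26 in WT cells at 3 h, with the others between -0.72 and -0.66. Values are log2 relative to the mean of the WT 0 h arrays.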

How the results depend on the processing

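Counts are genes past the threshold of 92, and medians are over these genes. KO minus WT at 0 h (13 genes, median -0.32) gave 7 with quantile normalization (median -0.14), 7 with scaled width, 1 in the fit of only the arrays of the contrast and 5 with the replicate block. The early difference (1 gene, -0.03) gave 2 and a median of -0.18 without centring, 2 and 0.023 with quantile normalization, a median of 0.019 with 1 probe per gene and 0.037 without both 0.5 h arrays, and 0 genes with only its own arrays. With the replicate block it stayed at 1. The late difference (21 genes) gave 11 without centring, 12 with 1 probe per gene, 6 with only its own arrays, 12 with the replicate block and 3 without the KO 6 h and 8 h arrays. WT late minus 0 h (6 genes) gave 2 without centring, with quantile normalization, with scaled width and with 1 probe per gene, 0 with only its own arrays and 3 without the KO 6 h and 8 h arrays. KO late minus 0 h (17 genes) gave 10 with 1 probe per gene, 9 with only its own arrays and 3 without the KO 6 h and 8 h arrays. Without centring the median was -0.068 for WT early minus 0 h, -0.00093 for KO early minus 0 h and 0.053 for the early difference of responses. Centring shifted the median of all genes: without it, that median was 0.16 at 0 h, -0.17 early and 0.16 late for KO minus WT, 0.19 for WT early and -0.12 for KO early. The late difference of responses had a median of 0.048 without the KO 6 h and 8 h arrays. Within a genotype the block is aliased with the windows and was not fitted. The block is the replicate number at 0 h and the time in the heat, and why calls were lost under it was not tested. With each array left out in turn, counts were 4 to 17 at 0 h, 1 early, 8 to 28 late, 0 to 1 for WT early, 1 to 13 for WT late, 0 for KO early, 5 to 18 for KO late and 0 for both differences of responses. Medians were -0.41 to -0.25 at 0 h, -0.059 to 0.077 early, -0.43 to -0.28 late, -0.36 to -0.19 for WT early, -0.34 to -0.20 for WT late, -0.0080 to 0.16 for KO early, -0.37 to -0.21 for KO late, 0.25 to 0.44 for the early and -0.11 to 0.074 for the late difference of responses. Over 58 results on single genes, 1224 alternatives kept the call, 428 lost it and 7 turned the sign. These were Ndufa4l2 at 0 h (0.10 with 1 probe, 0.088 with complete probes, and with each array left out -0.94 to 0.15, the highest without WT 0 h replicate 2), Ndufa4l2 late in WT cells (0.18 with 1 probe, 0.0089 with complete probes, and -0.91 to 0.072, again highest without WT 0 h replicate 2) and Atp5e late in KO cells (-0.13 with 1 probe), all through probes that disagree. Other causes were not tested.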

Other observations

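Some genes without a call had a single array far from the rest of its group. Ndufa11, an accessory subunit of complex I, read 1.09, 1.65 and 0.98 in KO cells and 0.74, -2.07 and 1.33 in WT cells at 0 h (difference 1.24 ± 0.65, limma adjusted p = 0.294). Cox7a1, the muscle form of complex IV subunit 7a, read -1.11, -1.75 and 1.35 in KO cells and -0.08, -0.01 and 0.09 in WT cells at 0 h. The 4 probes of the rotor gene Atp5g1 ranged from -1.45 to 3.11 for the late value in WT cells against 0 h.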
